A study of Mus musculus with 6 samples.

Results

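The genes described here are 10 transcription factors and chromatin regulators with known roles in uterine receptivity and uterine glands: *Msx1*, *Msx2*, *Klf5*, *Gata2*, *Foxo1*, *Foxa2*, *Sox17*, *Sox9*, *Hand2* and *Arid1a*. They were chosen by symbol, and all 10 were found among the 23420 genes counted in mouse uterine luminal layer and in blastocysts. Control females were Lif-floxed/floxed without Cre. *Lif* eKO females carried the same floxed alleles and Ltf-Cre/+, an iCre driven by the *Ltf* promoter in the uterine epithelium. Both received PBS, and a further group of *Lif* eKO females was injected intraperitoneally with recombinant Lif (rLif). The rLif dose was 20 µg per head at 10 am and again at 6 pm, 2 h before dissection. Females were dissected on day 4 of pregnancy at 8 pm, when embryos are about to attach. For each of the 3 groups, luminal epithelium was cut out by laser microdissection and RNA of independent samples was pooled into 1 library, and blastocysts flushed from the horns of such females were pooled into another. The embryos of all 3 groups were labelled Lif-floxed/+, with the treatments of the females. Each group was thus 1 library, no difference has a replicate check, and no p-value is given.

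A uterus accepts an embryo only for a short time, and the factors studied here take part in opening and closing that window. *Msx1* and *Msx2* are homeobox genes of the epithelium whose expression precedes attachment and declines with it. *Klf5*, *Foxo1* and *Sox17* are also needed in the epithelium for attachment, *Gata2* works with the progesterone receptor, *Foxa2* and *Sox9* mark glands, *Hand2* acts in the stroma under progesterone to restrain fibroblast growth factors, and *Arid1a* is a subunit of the SWI/SNF chromatin remodelling complex. Several have a second life in the embryo, *Klf5* and *Gata2* in trophectoderm and *Sox17* and *Foxa2* in endoderm.

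Sequences next to the start sites are shown for the members that differed most between luminal libraries, *Msx1*, *Gata2* and *Foxo1*, and for *Hand2*, whose window held a match to a searched motif. They are the 250 bases before an annotated start in RefSeq on GRCm38.p6, read 5′ to 3′ on the strand of the gene, and capitals mark the motif match. The windows lie at chr5:37824586-37824835 on the minus strand (*Msx1*), chr6:88198414-88198663 on the plus strand (*Gata2*, the second of 2 annotated starts), chr3:52268087-52268336 on the plus strand (*Foxo1*) and chr8:57320733-57320982 on the plus strand (*Hand2*).
Msx1: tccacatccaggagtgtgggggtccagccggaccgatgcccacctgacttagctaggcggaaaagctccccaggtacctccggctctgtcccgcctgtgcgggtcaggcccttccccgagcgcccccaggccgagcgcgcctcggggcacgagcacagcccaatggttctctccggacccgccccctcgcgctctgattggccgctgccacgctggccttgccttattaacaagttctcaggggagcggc
Gata2: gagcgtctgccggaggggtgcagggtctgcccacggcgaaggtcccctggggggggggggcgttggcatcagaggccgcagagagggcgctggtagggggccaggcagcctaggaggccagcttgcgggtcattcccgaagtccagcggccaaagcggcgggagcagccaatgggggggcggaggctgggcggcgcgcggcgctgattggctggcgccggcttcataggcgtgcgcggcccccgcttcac
Foxo1: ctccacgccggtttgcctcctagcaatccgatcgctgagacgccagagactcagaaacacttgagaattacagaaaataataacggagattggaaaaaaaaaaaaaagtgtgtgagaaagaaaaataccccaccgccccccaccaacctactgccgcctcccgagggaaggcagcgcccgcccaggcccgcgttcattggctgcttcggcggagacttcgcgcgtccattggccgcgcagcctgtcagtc
Hand2: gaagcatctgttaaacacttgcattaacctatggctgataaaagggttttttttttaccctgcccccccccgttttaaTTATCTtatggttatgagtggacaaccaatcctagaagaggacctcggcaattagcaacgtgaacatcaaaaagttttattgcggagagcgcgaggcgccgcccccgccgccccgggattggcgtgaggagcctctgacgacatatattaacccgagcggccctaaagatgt

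The RefSeq promoter table held 11 windows for 7 of the 10 members, namely *Msx1*, *Msx2*, *Gata2*, *Foxo1*, *Foxa2*, *Hand2* and *Arid1a*. Both strands were searched for AGATAA, the Gata motif, which was present in 9.99% of all 32851 windows of the same length. It was found in 2 of the 11 member windows, as TTATCT beginning 172 bases before the *Hand2* start and as AGATAA beginning 183 bases before the start of another, the most downstream of 3 *Foxa2* windows. The Stat motif TTCNNNGAA was in 0 of the 11 windows and in 7.02% of all windows. The forkhead motif GTAAACA was in 0 of the 11 and in 3.17% of all. The palindromic motifs of the progesterone or glucocorticoid receptor and of the estrogen receptor were in 0 of the 11 and in 0.387% and 0.0639% of all windows. The member windows were rich in G and C, with a median of 61.6% against 52.4% over all windows. None of these letter matches shows binding, and their lack says nothing of the factor.

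Total counts were between 18996158 and 28460465 per library. *Lif* itself had 28 counts in the luminal library labelled eKO and 0 in those labelled control and eKO with rLif. Glands are the main source of Lif before attachment, so a count of 0 in luminal epithelium is not by itself against the control label, but the order of the 3 counts does not follow the labels either. The luminal libraries are therefore named by label below, as control-labelled, eKO-labelled and rLif-labelled (the eKO given rLif), and each luminal direction rests on those labels. *Lif* counts were 1447, 1736 and 1250 in the blastocyst libraries of control, eKO and rLif-treated eKO females. All 12 luminal epithelium markers had counts in each luminal library, with summed levels of 11640 to 19640 CPM (counts scaled to a common library size). Markers of other cells had counts there too, 14 of 14 for stroma (1155 to 1762 CPM) and 8 of 8 for immune cells (1006 to 1095 CPM). The immune sums came mostly from *Lyz2* (14292 to 18800 counts) and *Cd74* (5726 to 9685), and no other immune marker exceeded 1613 counts. Gland markers were sparse, with counts for 3 to 5 of 6 and sums of 24.6 to 42.8 CPM. In blastocysts, 8 of 8 trophectoderm, 7 of 7 inner cell mass and 8 of 8 primitive endoderm markers had counts, while *Pou5f1*, *Nanog* and *Prdm14* of the inner cell mass were at 0 in all luminal libraries.

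**Figure D1:**
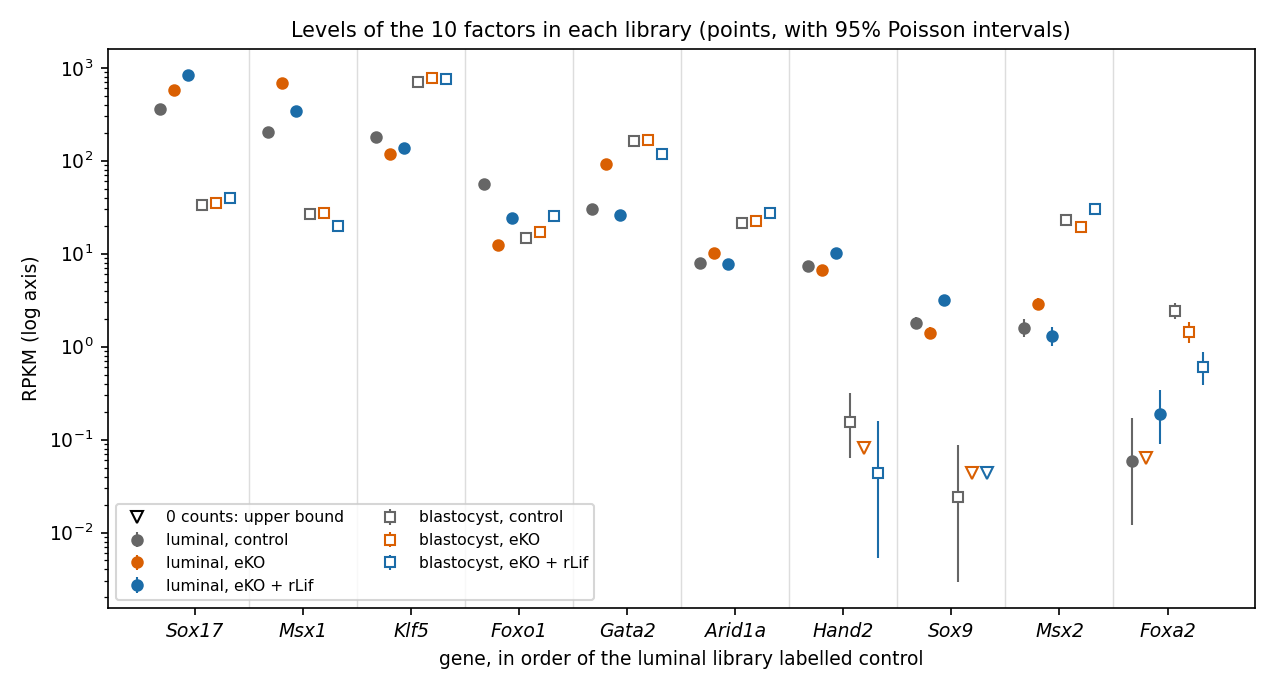
RPKM of each factor on a log axis in the 3 luminal libraries (filled circles) and the 3 blastocyst libraries (open squares), 1 library per point, with exact 95% Poisson intervals and open triangles for the upper bound where the count was 0. *Sox17*, *Msx1* and *Klf5* stand above the other factors in the luminal layer, where *Foxa2* is lowest, and *Klf5* leads in blastocysts, where *Hand2* and *Sox9* are at or near 0.

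Levels between genes were compared as RPKM, that is CPM per kilobase of exon, with library sizes scaled over all 6 libraries. In the control-labelled luminal library, *Sox17* led with 360.2 RPKM, followed by *Msx1* with 203 and *Klf5* with 182. *Foxo1* (55.9) and *Gata2* (30.2) came next, then *Arid1a* (7.92), *Hand2* (7.41), *Sox9* (1.79), *Msx2* (1.58) and *Foxa2* (0.0587). Of these neighbours, *Arid1a* and *Hand2* did not differ beyond counting error, nor did *Sox9* and *Msx2*. The median over all analysed genes of the 3 luminal libraries was 4.37 to 4.52 RPKM, so that 7 of the 10 factors lay above it and *Sox9*, *Msx2* and *Foxa2* below. In the eKO-labelled library the first places were exchanged, with *Msx1* at 692 RPKM above *Sox17* at 573, and *Gata2* (91.5) stood above *Foxo1* (12.4). In the rLif-labelled library, *Sox17* led again with 837 RPKM and *Msx1* followed with 344. No neighbours in the order overlapped in their intervals in these last libraries.

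In all 3 blastocyst libraries *Klf5* led, with 697 (control), 785 (eKO) and 764 RPKM (rLif-treated eKO), and *Gata2* followed with 164, 167 and 118. *Sox17* came next with 33.0 to 39.5 RPKM. *Msx1*, *Msx2*, *Arid1a* and *Foxo1* lay close together between 14.7 and 30.1 RPKM, and their order differed from library to library. *Foxa2* was low at 2.41, 1.42 and 0.597 RPKM, and *Hand2* (0 to 7 counts) and *Sox9* (0 to 2 counts) were at the edge of detection.

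The first question was which factors differed when epithelial *Lif* was deleted. A factor was called when the 95% interval of the ratio of its counts, which covers counting error only, lay wholly beyond a 2-fold difference. Between the eKO-labelled and control-labelled luminal libraries, 3 of the 10 factors were called, *Msx1* and *Gata2* higher and *Foxo1* lower in the former. By the same rule 17.2% of 15694 analysed genes were called, 8.08% higher and 9.15% lower. The median log2 ratio of the 9 factors with a ratio was 0.36, against 0.01 over all genes. The interval lay above 0 for 5 of the 10 factors and below 0 for 3, and the like share over all genes is not given.

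*Msx1* (chr5:37820491-37824585, minus strand) reached 9439 counts in the control-labelled, 36545 in the eKO-labelled and 16640 in the rLif-labelled luminal library. The eKO-labelled library was thus highest and the control-labelled one lowest. *Msx1* rose 3.40-fold in the eKO-labelled library against control (log2 ratio 1.77, interval 1.73 to 1.80). With rLif it stood between the other libraries, at a log2 ratio of 0.77 to control (0.74 to 0.81) and of -0.99 to eKO (-1.02 to -0.97), which crossed the limit. Exons of *Msx1* overlap those of *Msx1as*, which had 123, 165 and 33 counts in the same libraries, and the library kit does not mark strand, so reads of the shared exons cannot be told apart. *Msx2* (chr13:53466881-53472780, minus strand), the paralog that can stand in for *Msx1* in the uterus, had far fewer counts with 82, 170 and 70. Its log2 ratios were 0.87 for eKO against control (0.48 to 1.26) and -1.14 for rLif against eKO (-1.56 to -0.73), neither past the limit.

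*Gata2* (chr6:88198664-88207032, plus strand), the zinc finger partner of the progesterone receptor, had counts of 2356 (control-labelled), 8115 (eKO-labelled) and 2127 (rLif-labelled). The eKO-labelled library stood apart from the others. *Gata2* rose 3.03-fold against control (log2 ratio 1.60, interval 1.53 to 1.67), and the log2 ratio of rLif to eKO was -1.79 (-1.86 to -1.72). The rLif-labelled and control-labelled libraries differed by a log2 ratio of -0.19 (-0.28 to -0.11). Summed stroma markers were also highest in the eKO-labelled library, at 1762 CPM against 1162 in control and 1155 with rLif. Luminal epithelium markers followed the same order with 19640, 11910 and 11640 CPM, and the part of either in the *Msx1* and *Gata2* values was not tested. In bulk libraries such as these, fewer cells of a type and less RNA per cell cannot be told apart.

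*Foxo1* (chr3:52268337-52350109, plus strand), a forkhead factor held in the nucleus of the receptive epithelium, had 7462, 1884 and 3324 counts in the control-labelled, eKO-labelled and rLif-labelled libraries. Its order was the reverse of that of *Msx1*. *Foxo1* fell 4.51-fold in the eKO-labelled library against control (log2 ratio -2.17, interval -2.25 to -2.10). It was also lower with rLif than in control, at a log2 ratio of -1.21 (-1.27 to -1.15). Between rLif and eKO the log2 ratio was 0.96, and the interval of 0.88 to 1.04 crossed the limit. Smooth muscle markers were also highest in the control-labelled library, at summed levels of 82.1, 58.0 and 36.6 CPM in the same order of libraries. Of 7, 2 were called lower for eKO against control (*Actg2* with 7 counts against 142 and *Cnn1* with 29 against 124), 4 were lower for rLif against control and 0 were higher in either, and their part in the *Foxo1* values was not tested. GENCODE places an antisense RNA, *Gm20402*, over *Foxo1* exons, and its reads could have been counted with the gene.

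**Figure D2:**
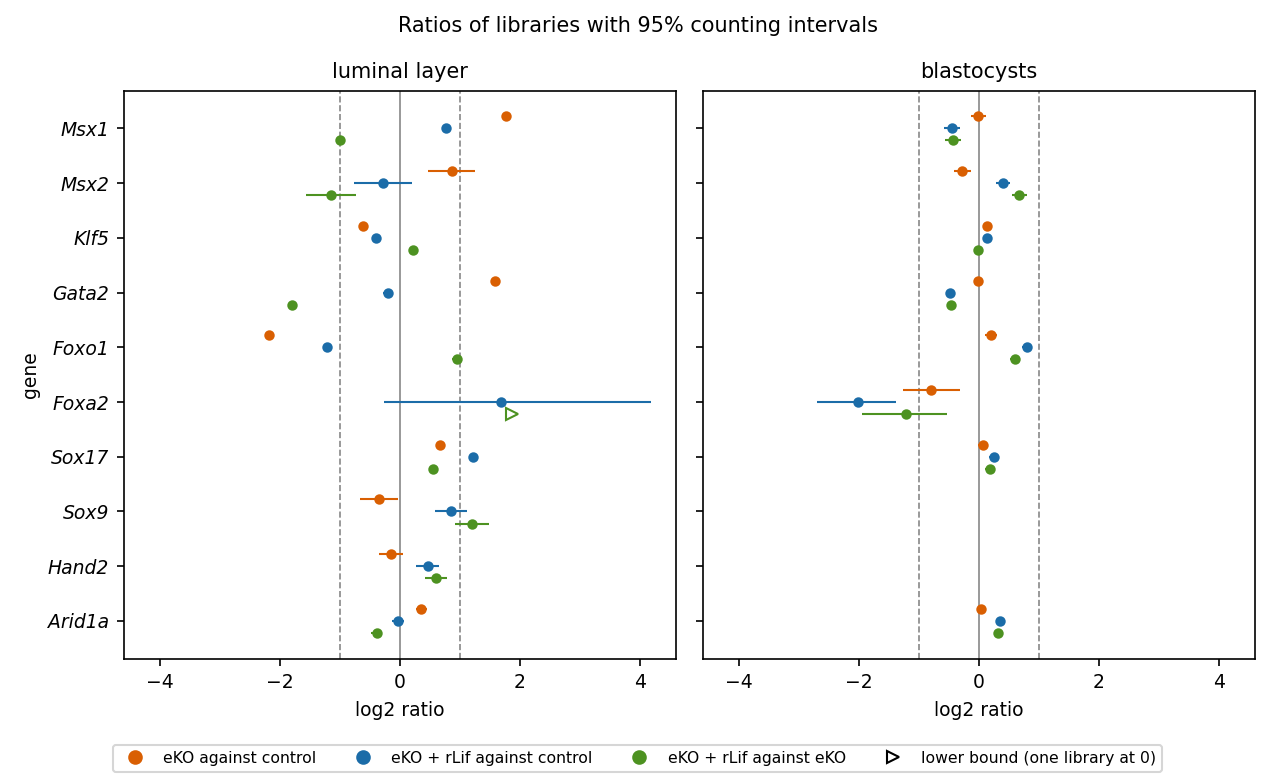
Log2 ratios of each factor between libraries of the luminal layer (left) and of blastocysts (right) with 95% counting intervals, dashed lines at the 2-fold limit and an open triangle for the lower bound of *Foxa2*. *Msx1*, *Gata2* and *Foxo1* lie past the limit in the left panel for eKO against control, and *Foxa2* alone lies past it in the right panel.

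*Sox17* (chr1:4490928-4496413, minus strand), an HMG box factor of luminal and glandular epithelium, had 27110 counts under the control label, 48998 under the eKO label and 65587 under the rLif label. The rLif-labelled library was highest. *Sox17* rose 2.35-fold there against control (log2 ratio 1.23, interval 1.21 to 1.25), while the log2 ratio of eKO to control was 0.67 (0.65 to 0.69) and that of rLif to eKO was 0.56 (0.55 to 0.58). *Sox17* is also expressed in endothelium, and all 7 endothelium markers had counts, with sums of 64.3, 91.4 and 112.6 CPM in the same order of libraries. Between rLif and eKO *Tek* alone was called higher (124, 198 and 897 counts), and the median log2 ratio of the 7 markers was 0.49 for eKO against control, 0.32 for rLif against control and -0.0079 for rLif against eKO. *Sox17* alone had 1127, 1792 and 2620 CPM, and the part of endothelium in its difference was not tested. *Klf5* (chr14:99298691-99313409, plus strand), a zinc finger factor that the epithelium needs for attachment, had 7551, 5601 and 5937 counts. Its log2 ratios were -0.62 for eKO against control (-0.67 to -0.57), -0.39 for rLif against control and 0.23 for rLif against eKO, all within the limit.

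The next questions were how the rLif library stood to control and to the untreated eKO library. Between the rLif-labelled and control-labelled libraries, 2 of 10 factors were called, *Sox17* higher and *Foxo1* lower, while 9.16% of genes were called, 4.12% higher and 5.04% lower. The median log2 ratio of the factors was 0.22 against 0.01 over all genes. Between the rLif-labelled and eKO-labelled libraries, 2 of 10 were called, *Foxa2* higher and *Gata2* lower, while 15.6% of genes were called, 7.88% higher and 7.77% lower. The median was 0.39 against -0.01 over all genes, with *Foxa2* set at the ratio that a floor of 3 counts gives. These comparisons share libraries with the first, so the same counts enter each of them.

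The factors of glands and stroma were low in the luminal layer. *Foxa2* (chr2:148042878-148046969, minus strand), which glands need to form and to make Lif, had 3 (control-labelled), 0 (eKO-labelled) and 10 counts (rLif-labelled). With the 0 of the eKO library set to the floor of 3 counts, *Foxa2* was 3.68-fold higher with rLif than in eKO. The lower limit of the counting interval of this log2 ratio, from 10 counts against 0, was 1.31. The log2 ratio of rLif to control was 1.69 with an interval of -0.26 to 4.19. Of 5 gland markers analysed, 2 were called higher and 2 lower with rLif against eKO, with a median log2 ratio of -0.86. *Prss28* and *Prss29* were higher, at 142 and 315 counts against 13 and 111, and *Gas1* (274 against 1011) and *Lif* itself (0 against 28) were lower. *Foxa1* was at 0 in all luminal libraries, and the part of gland cells was not tested. *Sox9* (chr11:112782210-112787757, plus strand), an HMG box factor of gland cells, had 178, 159 and 332 counts. The rLif-labelled library was highest, with log2 ratios of 0.85 to control (0.59 to 1.13) and 1.20 to eKO (0.93 to 1.49), neither past the limit. *Hand2* (chr8:57320983-57324517, plus strand), a helix-loop-helix factor of the stroma, had 398, 411 and 567 counts. Its log2 ratios were -0.14 for eKO against control (-0.34 to 0.06) and 0.61 for rLif against eKO (0.42 to 0.79). Stroma markers summed to 1155 CPM with rLif, where *Hand2* was highest, and to 1762 CPM in eKO, where it was lowest in CPM. The antisense RNA *Hand2os1* overlaps *Hand2* exons in GENCODE. *Arid1a* (chr4:133679008-133753611, minus strand) had 1557, 2275 and 1579 counts, with log2 ratios of 0.36 for eKO against control (0.27 to 0.46) and -0.02 for rLif against control (-0.13 to 0.08).

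Across the 3 luminal libraries the highest CPM exceeded the lowest 4.51-fold for *Foxo1*, 3.46-fold for *Gata2* and 3.40-fold for *Msx1*. The ratio was 2.20 to 2.35 for *Sox17*, *Sox9* and *Msx2*, 1.53 for *Klf5*, 1.52 for *Hand2* and 1.31 for *Arid1a*. Over 14090 genes with more than 3 counts in each luminal library the median of this ratio was 1.68. In blastocysts the median over 13370 genes was 1.28, and the factors had ratios of 1.10 (*Klf5*) to 1.74 (*Foxo1*) except for *Foxa2* with 4.04.

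Blastocysts from the 3 groups of females were compared in the same way. The filter of 10 counts summed over 3 libraries left 8 of the 10 factors, without *Sox9* (2, 0 and 0 counts) and *Hand2* (7, 0 and 2 counts). Of the 8, 0 were called between eKO and control, where 3.15% of 14873 genes were called, 1.29% higher and 1.86% lower. For rLif against control, *Foxa2* alone was called, lower, where 4.94% of genes were called, 0.948% higher and 3.99% lower. Between rLif and eKO 0 of 8 were called, where 3.75% of genes were, 0.914% higher and 2.83% lower. The median log2 ratios of the 8 factors were 0.01, 0.19 and 0.09 in these comparisons, against -0.0028, -0.01 and -0.0098 over all genes.

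*Foxa2* had 103 counts in control blastocysts, 61 in blastocysts of eKO females and 26 in those of rLif-treated females. It fell 4.04-fold with rLif against control (log2 ratio -2.01, interval -2.69 to -1.38). The log2 ratio was -0.79 for eKO against control (-1.27 to -0.32) and -1.22 for rLif against eKO (-1.94 to -0.54). *Foxa2* is an endoderm factor of the embryo, and all 8 primitive endoderm markers had counts, with sums of 1975, 1989 and 1554 CPM. Of these 8, *Sox7*, *Cubn* and *Serpinh1* were called lower with rLif against control and 0 were called higher. *Gata6* (5388 counts against 3454) and *Pdgfra* (2718 against 2354) went up within the limit, and the median log2 ratio of the 8 was -0.51. Uterine markers fell in the same comparison. Of 14 stroma markers 0 were higher and 6 lower (median log2 ratio -1.20), and of 4 gland markers analysed 0 were higher and 1 lower (median -0.79). The part of primitive endoderm or of uterine cells in the *Foxa2* value was not tested.

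The other factors of the blastocyst stayed within the limit. *Klf5* had 24187 (control), 27308 (eKO) and 26963 counts (rLif), and the rLif library differed from eKO by a log2 ratio of -0.01 (-0.03 to 0.01). *Gata2* had 10700, 10894 and 7830 counts, with log2 ratios of -0.01 for eKO against control (-0.05 to 0.03) and -0.48 for rLif against control (-0.52 to -0.44). *Foxo1* had 1639, 1935 and 2913 counts and was highest with rLif, at a log2 ratio of 0.80 to control (0.71 to 0.89). *Msx1* had 1046, 1062 and 783 counts and *Msx2* 993, 842 and 1333. With rLif against eKO the log2 ratio was -0.43 for *Msx1* (-0.57 to -0.30) and 0.67 for *Msx2* (0.55 to 0.80). *Sox17* had 2081, 2233 and 2531 counts and *Arid1a* 3487, 3674 and 4539, with log2 ratios of 0.25 and 0.35 for rLif against control.

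The last comparison set the tissues side by side. Between the control luminal layer and control blastocysts all 10 factors were called, where 52.1% of 17081 genes were called, 27.0% higher and 25.1% lower in the luminal layer. *Sox9*, *Hand2*, *Sox17*, *Msx1* and *Foxo1* were higher in the luminal layer, and *Foxa2*, *Msx2*, *Gata2*, *Klf5* and *Arid1a* were higher in blastocysts. The widest log2 ratios towards the luminal layer were 6.22 for *Sox9* (178 against 2 counts, interval 4.35 to 9.28) and 5.57 for *Hand2* (398 against 7, 4.52 to 6.90). *Sox17* followed with 3.45 (3.38 to 3.51), *Msx1* with 2.92 (2.83 to 3.01) and *Foxo1* with 1.93 (1.85 to 2.01). Towards blastocysts they were -5.36 for *Foxa2* (3 against 103, -7.66 to -3.77) and -3.86 for *Msx2* (-4.20 to -3.53). *Gata2* followed with -2.44 (-2.51 to -2.38), *Klf5* with -1.94 (-1.97 to -1.90) and *Arid1a* with -1.42 (-1.51 to -1.33). The *Msx* genes thus lay on opposite sides of the comparison.

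For 9 of the 10 factors the 3 luminal CPM values did not overlap the 3 blastocyst values, which held for 73.5% of 17081 genes. The exception was *Foxo1*, whose luminal levels of 12.4 to 55.9 RPKM enclosed blastocyst levels of 14.7 to 25.6 RPKM. *Gata2* came near, with at most 91.5 RPKM in the luminal layer and at least 118 RPKM in blastocysts.

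One library per group gives no estimate of the spread between pools of animals. With that spread set by assumption to a dispersion of 0.1 in edgeR's exact test, and with the study's limits on fold and false discovery rate, *Foxo1* was the only factor called between the eKO-labelled and control-labelled libraries, where 7.96% of genes were called. In the luminal comparisons of rLif against control and against eKO, 0 of 10 were called, where 2.18% and 7.07% of genes were. In blastocysts 0 of 8 were called in each comparison, where 0.437%, 0.834% and 0.39% of genes were. Between the tissues 9 of 10 were called, *Arid1a* being the exception, where 45.5% of genes were.

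The genes whose counts followed a called factor most closely over the 3 libraries of a tissue were sought among 11356 luminal and 10258 blastocyst genes with at least 50 counts in each library. Likeness was the distance of centred log2 CPM, and 3 libraries allow many such matches. *1700001L05Rik* (286, 1164 and 517 counts) and *Dlgap1* were nearest to luminal *Msx1*, at distances of 0.05 and 0.06. *Rec8* (107, 361 and 96 counts) and *Zcchc24* were nearest to *Gata2*, both at 0.04. *Fam20c* (2827, 669 and 1200 counts) and *Tmem181b-ps* were nearest to *Foxo1*, at 0.07 and 0.08. *Rad54l2* (87, 158 and 215 counts) and *Rps27* were nearest to *Sox17*, at 0.01 and 0.03. *Tmem120b* (511, 206 and 1211 counts) and *Gch1* were nearest to luminal *Foxa2*, which itself had too few counts for this to mean much. In blastocysts *Gpr56* (733, 469 and 206 counts) and *Galnt10* were nearest to *Foxa2*, at 0.07 and 0.08.

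Lists of related genes were followed in the same luminal comparisons. Of all genes, 17.2% were called for eKO against control, 9.16% for rLif against control and 15.6% for rLif against eKO. Family relatives of the factors, of which 19 of 26 were analysed, had 1 called higher and 3 lower for eKO against control, with a median log2 ratio of -0.57. *Arid1b*, the paralog of *Arid1a*, rose with 1744 counts against 678 (log2 ratio 1.18, interval 1.05 to 1.31). *Foxo6* fell with 1 count against 17 (-4.27, -9.66 to -1.60). For rLif against control 0 were higher and 1 was lower, *Klf2* with 266 counts against 852 (log2 ratio -1.72), and for rLif against eKO 0 were called in either direction.

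Uterine genes linked to the factors, of which 19 of 22 were analysed, moved in both directions. For eKO against control 5 were higher and 5 lower, with a median log2 ratio of -0.16. *Fgf1*, a fibroblast growth factor of the list, had 55 counts under the control label, 3662 under eKO and 191 under rLif. It rose 58.5-fold in eKO against control (log2 ratio 5.87, interval 5.49 to 6.28), and the log2 ratio with rLif against eKO was -4.12. *Fgf9*, another fibroblast growth factor of the list, went the opposite way with 2879, 104 and 2284 counts, at log2 ratios of -4.98 for eKO against control (-5.27 to -4.69) and -0.38 for rLif against control. *Fgf18* moved like *Fgf1*, with 140, 964 and 94 counts, and was called higher for eKO against control and lower for rLif against eKO. *Fgf2* had 1 count in each library. *Hand2*, which restrains fibroblast growth factors in the stroma, did not itself pass the limit between these libraries. *Igfbp1*, a Foxo1 target of decidual cells, had 95 counts under the control label and 0 under both others. With each 0 set to the floor of 3 counts, it was 36.0-fold lower in eKO and 32.7-fold lower with rLif than in control. The upper 95% limits of these log2 ratios were -4.84 and -4.70. *Areg*, an epidermal growth factor family ligand that progesterone induces in the epithelium, had 1067, 236 and 7232 counts, with a log2 ratio of 5.08 for rLif against eKO (4.89 to 5.27) and of 2.72 against control. For rLif against control 4 of the list were higher and 1 lower (median 0.46), and against eKO 6 were higher and 3 lower (median 0.29).

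**Figure D3:**
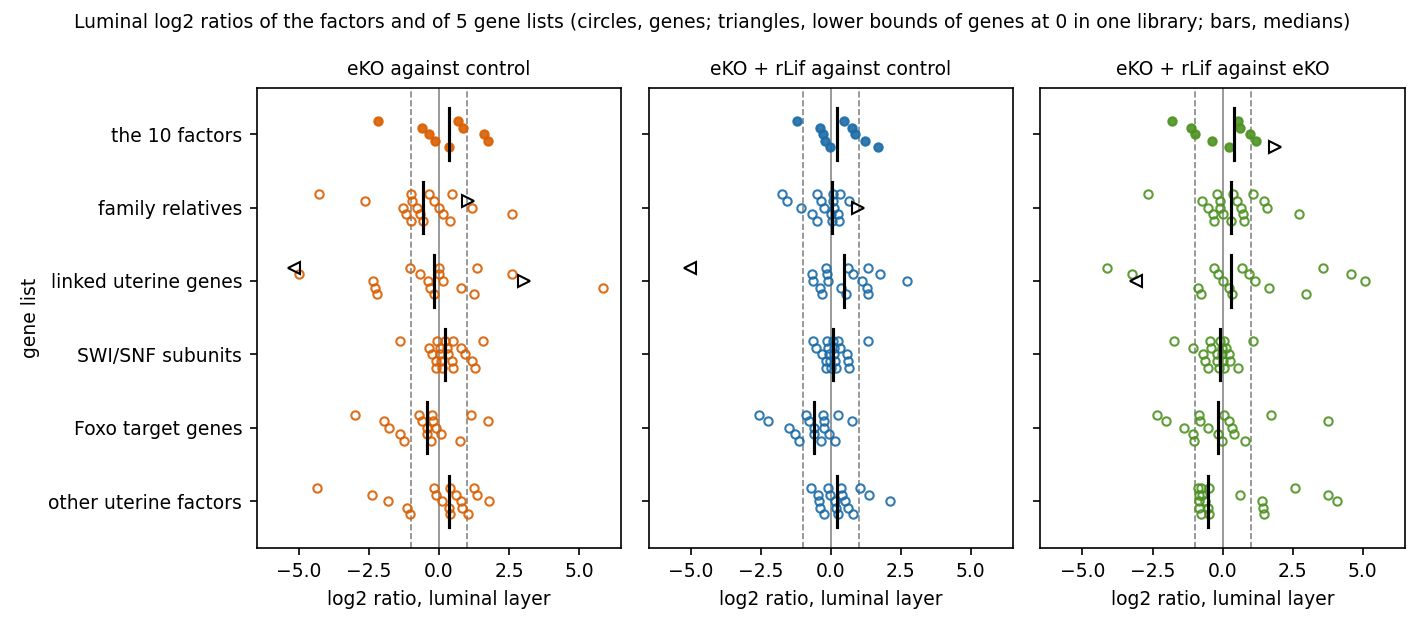
Luminal log2 ratios of the 10 factors (filled) and of 5 lists of related genes (open), 1 point per gene with a ratio, in 3 comparisons of libraries. Triangles stand for genes without counts in 1 library, which was set to the floor of 3 counts, and black bars for medians. The SWI/SNF subunits reach from *Phf10* to *Smarca2* for eKO against control around a median of 0.22, while the linked uterine genes reach from *Igfbp1* on the left to *Fgf1* on the right for eKO against control.

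All 21 SWI/SNF subunits were analysed. For eKO against control 3 were higher and 1 lower, with a median log2 ratio of 0.22. *Smarca2*, an ATPase of the complex that holds *Arid1a*, had 1082, 3640 and 997 counts, with log2 ratios of 1.56 for eKO against control (1.47 to 1.66) and -1.73 for rLif against eKO (-1.83 to -1.63). *Phf10* fell in eKO with 453 counts against 1036 (-1.38, -1.54 to -1.22). For eKO with rLif 1 subunit was higher against control, *Smarcd1* with 301 counts against 116, and *Smarca2* alone was lower against eKO. The medians were 0.08 and -0.11.

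Of 17 Foxo target genes, all analysed, 1 was higher and 3 were lower for eKO against control, where 17.2% of all genes were called. Their median log2 ratio was -0.41, and the part of *Foxo1* in these values was not tested. *Gadd45a*, a growth arrest gene, had 5116, 723 and 8946 counts, at log2 ratios of -3.01 for eKO against control (-3.12 to -2.90) and 3.77 for rLif against eKO. *Sesn1* went the other way with 299, 1142 and 203 counts, at log2 ratios of 1.75 (1.56 to 1.94) and -2.35. For rLif against control 0 were higher and 3 lower (median -0.60), led by *Cited2* with 549 counts against 3169 (log2 ratio -2.57), and against eKO 2 were higher and 3 lower (median -0.18). Of 18 other uterine transcription factors, 3 were higher and 4 lower for eKO against control (median 0.37). *Wt1* rose with 858 counts against 221 (log2 ratio 1.77) and *Tfap2c* fell with 7 against 124 (-4.33, -5.68 to -3.25). For eKO with rLif 2 were higher and 0 lower against control (median 0.23), led by the early response gene *Egr1* with 1358 counts against 304, and 6 were higher and 0 lower against eKO (median -0.51), led by *Tfap2c* with 107 counts against 7. The counts and the median of that last list thus pointed in opposite directions. All 5 lists were drawn up with earlier results of these data known.

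**Figure D4:**
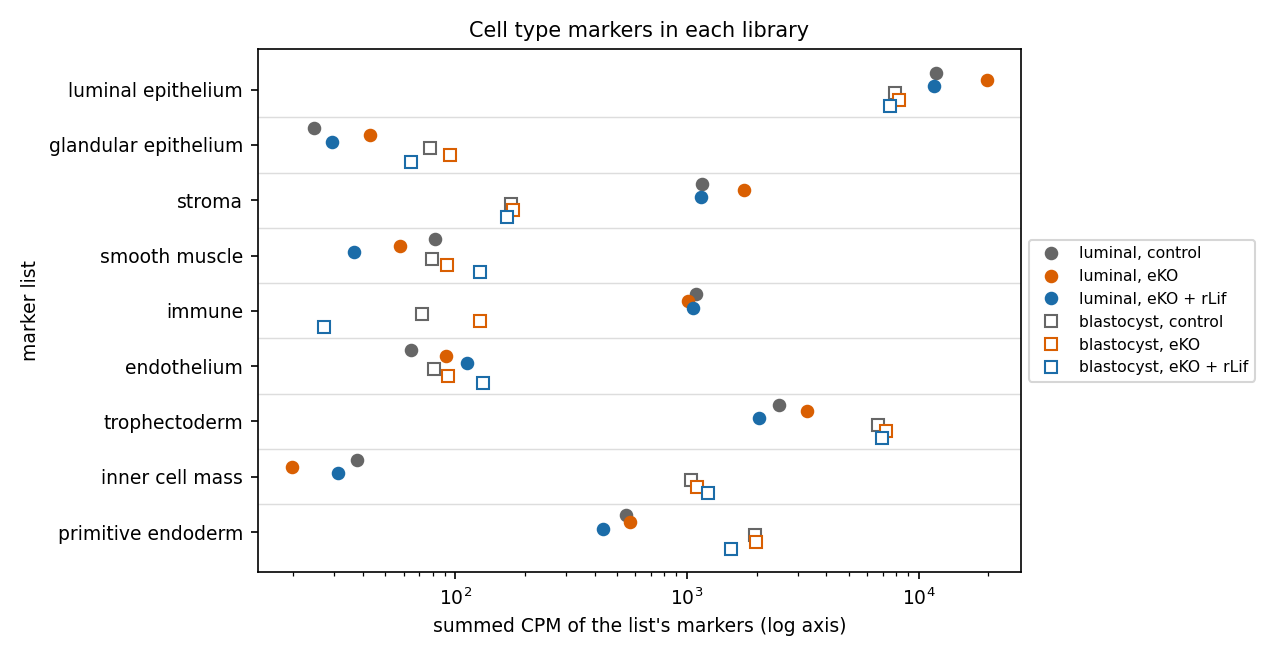
Summed CPM of 9 lists of cell type markers on a log axis in the 3 luminal libraries (filled circles) and the 3 blastocyst libraries (open squares), 1 library per point. Stroma and immune markers are at 1006 CPM or more in the luminal layer, gland markers are at 42.8 CPM or less there, and inner cell mass markers separate the tissues. The luminal immune sums come mostly from *Lyz2* and *Cd74*.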

How the data were processed

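From pooled RNA the authors prepared libraries with the SMART-seq v4 kit, mapped the read pairs with HISAT2 (mouse build GRCm38/mm10) and counted them over genes by featureCounts (Subread 2.0.0). The deposited values are whole-number counts per gene, in 1 table per tissue, not normalized, although the study's methods describe RPKM. The annotation release, strand setting and handling of reads mapping to several places were not given in the sources used here. Groups came from the sample labels, with 1 library each.

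A gene was analysed when its counts over the 3 libraries of a tissue (all 6 for the tissue comparison) summed to 10 or more. Sizes of libraries were adjusted by TMM with edgeR 4.0.16 in R 4.3.3. Clopper-Pearson intervals (95%, exact) were computed for ratios and exact Poisson intervals for single counts. PCR reads carried no molecular identifiers, so intervals and the floor of 3 counts cover counting error only. In medians of log2 ratios, genes at 0 in 1 library were set at the ratio that this floor gives. A gene was called if the whole interval of its ratio was above a log2 ratio of 1 or below -1, a rule that compares libraries, not conditions. The study applied edgeR with an absolute log2 fold change above 1 and a false discovery rate below 0.05, which needs a dispersion that 1 library per group does not give. It was therefore run with assumed dispersions of 0.04, 0.1 and 0.2, and numbers of calls alone are given. Scripts were tested on simulated data.

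All 10 factors are named. From each gene list, the called gene with the largest absolute log2 ratio in each direction and luminal comparison is named, and at most 3 genes per list called in each blastocyst comparison. For each factor called within a tissue, the 2 nearest genes are named. Markers named otherwise, the gland and endoderm genes beside *Foxa2*, and *Fgf9*, *Fgf18* and *Fgf2* were picked after their values were seen. The factors, lists and motifs were chosen with earlier results of these data known. The gland and immune lists lacked *Cxcl15*, *Spink1* and *Adgre1*, which were not analysed here. Positions run from the first to the last exon base in the deposited tables, and gene types and overlaps came from GENCODE M21 on the same build, where all 10 are protein coding. DESeq2 1.42.0 size factors, total counts, the upper quartile, other count filters, limits and intervals were tried as alternatives.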

Additional observations from a re-analysis of the deposited data

Results flagged for a closer look

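The luminal and blastocyst effects of the same contrast pointed in opposite directions, with both 95% counting intervals away from 0, for *Foxo1*, *Foxa2*, *Msx1*, *Msx2*, *Klf5* and *Arid1a*. The share of all genes that meet this rule is not given. How many factors met it is therefore not a result about them. *Foxo1* and *Foxa2* alone were called in 1 of the tissues in such a contrast. For *Foxo1*, eKO against control gave a log2 ratio of -2.17 in the luminal layer and 0.20 in blastocysts, so that the luminal ratio minus the blastocyst ratio was -2.38. For *Foxo1* with rLif against control the ratios were -1.21 and 0.80, and the difference was -2.01. For *Foxa2* with rLif against eKO the luminal log2 ratio was 1.88 with the 0 set to the floor of 3 counts (10 counts against 0, lower 95% limit 1.31). The blastocyst ratio of *Foxa2* was -1.22 (26 counts against 61, -1.94 to -0.54), and the difference at these values was 3.10. For *Msx2* the difference was 1.14 for eKO against control (0.87 and -0.27) and -1.81 for rLif against eKO (-1.14 and 0.67). For *Msx1* with rLif against control it was 1.22 (0.77 and -0.45). *Klf5* differed by -0.756 for eKO against control (-0.62 and 0.14) and by -0.520 for rLif against control (-0.39 and 0.13). *Arid1a* differed by -0.698 for rLif against eKO (-0.39 and 0.31). Each direction is that of 1 library against another, the luminal ones rest on labels whose order *Lif* counts do not follow, and the differences between tissues were not tested.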

How the results depend on the processing

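The values limited most by depth were luminal *Foxa2* (0 to 10 counts) and blastocyst *Sox9* and *Hand2* (0 to 7 counts), and all others are limited by the lack of replicates. Another scaling (DESeq2 size factors, total counts or the upper quartile) moves all log2 ratios of a comparison alike, by at most 0.29, so it could not turn the direction of a called factor. Total counts moved all luminal log2 ratios with rLif by -0.18 against control and -0.11 against eKO, and the upper quartile moved those between tissues by 0.29. Luminal *Msx1* with rLif against eKO passed the limit under total counts (-1.10) and the upper quartile (-1.09), making 3 called factors there. *Gata2* overlapped between tissues under the upper quartile, leaving 8 factors without overlap.

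Numbers of called factors moved as follows for luminal eKO against control (3), luminal rLif against control (2) and luminal rLif against eKO (2). With a log2 limit of 0 they were 8, 7 and 10. With a log2 limit of 2 they were 1, 0 and 0. With edgeR at a dispersion of 0.04 they were 3, 2 and 3, with *Sox9* added in the last. At a dispersion of 0.1 they were 1, 0 and 0, and at 0.2 they were 0, 0 and 0. For luminal rLif against eKO a filter of 50 summed counts or a 99% interval left 1, since *Foxa2* was lost. In blastocysts a log2 limit of 0 gave 4, 8 and 7 for eKO against control, rLif against control and rLif against eKO. For rLif against control a log2 limit of 2 and edgeR at dispersions of 0.1 and 0.2 gave 0, while edgeR at 0.04 gave 1, *Foxa2*. Apart from edgeR at a dispersion of 0.1, no share of all genes is given for these settings. The numbers therefore show how the calls moved and not whether the factors differ from other genes. No paired analysis was possible because each group was 1 library.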

Other observations

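Some relatives of the factors passed the limit between blastocyst libraries. *Hand1*, a helix-loop-helix factor of trophoblast, had 253 counts in control blastocysts, 56 in the eKO group and 72 in the rLif group, at log2 ratios of -2.21 (-2.66 to -1.79) and -1.84 (-2.24 to -1.46) against control. *Foxa1* had 34, 155 and 38 counts, and its log2 ratio was 2.15 between eKO and control (1.61 to 2.73) and -2.02 between rLif and eKO. *Sox7*, a relative of *Sox17*, had 434, 323 and 113 counts, and its log2 ratio with rLif against control was -1.97 (-2.28 to -1.67). *Foxo3* went the other way with 141, 155 and 396 counts (1.46, 1.18 to 1.75). Of 22 relatives analysed, 1 was higher and 1 lower for eKO against control, 1 and 2 for rLif against control, and 1 and 2 against eKO. Of all genes, 3.15%, 4.94% and 3.75% were called in these blastocyst comparisons.

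Of the 17 Foxo target genes, 0 were called in blastocysts from eKO against control, and *Txnip* (110, 75 and 15 counts) and *Cited2* (5331 against 1976) were lower with rLif against control. *Txnip* and *Ccng2* (1720 against 585) were lower with rLif against eKO. Of the 13 linked uterine genes analysed in blastocysts, *Wnt11*, *Ihh* and *Fgf9* were lower with rLif against control, at 37, 12 and 0 counts against 164, 49 and 10. *Hoxa10* and *Hoxa11*, factors of uterine stroma, had 48 and 24 counts in control blastocysts and 6 and 1 with rLif. Of the 14 stroma markers, 0 were higher and 3 lower for eKO against control (median log2 ratio -1.03), and 0 were higher and 6 lower for rLif against control (median -1.20), *Hoxa10*, *Hoxa11*, *Col1a2*, *Col3a1*, *Col6a1* and *Dcn*. The summed level of the list, 167.6 to 177.5 CPM, included *Pdgfra*, which is also a primitive endoderm marker, with 2354, 2845 and 2718 counts. Of 11 luminal epithelium markers analysed in blastocysts, *Calb1* was called higher and *Krt19* lower for eKO against control. For rLif against control *Krt19* (108 counts against 1401) and *Cldn3* (1499 against 3144) were lower, 0 were higher and the median log2 ratio was -0.27. The part of uterine cells in these values and in those of the factors was not tested. Of the 21 SWI/SNF subunits 0 were called in any blastocyst comparison.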
